A study of Mus musculus with 2 samples.

Results

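Integrin subunit genes whose products bind extracellular matrix were examined in single cells of the mitral valve. The set held 10 genes of the 32285 rows of each matrix, chosen by gene symbol: the β subunits Itgb1 and Itgb5, and the α subunits Itgav, Itga5, Itga8, Itga9, Itga1, Itga10, Itga11 and Itga6. Each symbol stood on a single row, and all 10 had UMIs in both libraries. The libraries came from mgR mice, homozygous for a hypomorphic Fbn1 allele that yields less fibrillin-1, and from WT (Fbn1+/+) littermates. Both genotypes were on a C57BL/6J background, 12 weeks old and untreated. Collagenase A and elastase freed the cells of the leaflets, and live ones were sorted for capture. There was 1 library per genotype, which held cells with Xist and cells with Y-linked RNA and so more than 1 animal, with no record of which cell came from which animal, so no difference between the genotypes has a replicate check and no test was made.

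An integrin is a dimer of an α and a β chain that spans the membrane, holds matrix outside the cell and is tied to actin inside it through talin and kindlin. The partner chain decides the ligand. β1 pairs with α5, α8 and αv to bind the RGD motif of fibronectin and related proteins, with α1, α10 and α11 to bind collagens, with α6 to bind laminins and with α9 to bind tenascin and other ligands. αv also pairs with β5, which has no other α partner, and α6 also pairs with β4, so not every transcript of the set belongs to a β1 dimer. Integrins that contain αv can free TGF-β from its latent complex, which fibrillin microfibrils hold in the matrix.

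Expression was counted in unique molecular identifiers (UMIs), 1 for each captured RNA molecule, and is given as CPM, the count per 1000000 UMIs of a cell type in a library. Parentheses after a value hold its 95% interval, which reflects counting error alone. Cells were assigned to a type by marker UMIs and kept in it if they passed exactly 1 of 4 gates. This gave 322 WT and 877 mgR fibroblasts, 224 and 1531 macrophages, 29 and 147 endothelial cells, and 90 and 148 T cells. Median depth was 5182 and 6727 UMIs per fibroblast and 6013 and 8292 per macrophage. All 5 further markers of each type, which the gates did not use, had UMIs in that type in both libraries. Their summed level in fibroblasts was 19719 CPM in WT and 28623 CPM in mgR, and at most 716 CPM in the other types. Fbn1, the targeted gene, had 171.1 CPM (152.0 to 192.0) in WT and 136.0 CPM (127.0 to 145.5) in mgR fibroblasts. This was a smaller drop than the severe loss of Fbn1 mRNA that the study describes for mgR mice. The study's RT-PCR of Fbn1 was made in cultured dermal fibroblasts, and the reason for the gap was not tested.

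The libraries also differed in sex makeup, which touches every comparison between them. The study reports that its comparisons were limited to male mice, yet both libraries held cells with Xist UMIs. The sources used here do not explain this. Among fibroblasts, those with Xist UMIs and no Y-linked UMIs (Xist group) made up 25.2% in WT and 59.5% in mgR, and those with Y-linked UMIs and no Xist UMIs (Y-linked group) made up 44.7% and 24.1%. Ratios of the members within each of these groups are therefore given beside the pooled ones. They were not computed for the pathway genes named further on.

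The β subunits differed in how widely they were spread. Itgb1, the common β1 chain, had its highest level in endothelium in both libraries, with 1038 CPM (862 to 1239) in WT and 983 CPM (918 to 1052) in mgR. Fibroblasts had 549.5 CPM (515 to 586) in WT and 455.8 CPM (439 to 473) in mgR, and macrophages had 445.1 CPM (411 to 481) and 447.1 CPM (436 to 459). T cells were lowest at 226.6 and 202.9 CPM. The endothelial level was 1.89 times the fibroblast level in WT (1.55 to 2.28) and 2.16 times in mgR (1.99 to 2.33). Fibroblasts exceeded macrophages 1.23-fold in WT (1.12 to 1.37), whereas in mgR these neighbours did not differ beyond counting error, with a ratio of 1.02 (0.974 to 1.07).

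Itgb5, the αv-specific β5 chain, was a gene of fibroblasts and macrophages. It had 107.8 and 126.1 CPM in WT and mgR fibroblasts and 119.8 and 124.3 CPM in macrophages, levels that did not differ between the types beyond counting error. Endothelium held 2 and 11 Itgb5 UMIs, or 17.0 and 13.0 CPM, and T cells held 10 and 2.

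**Figure D1:**
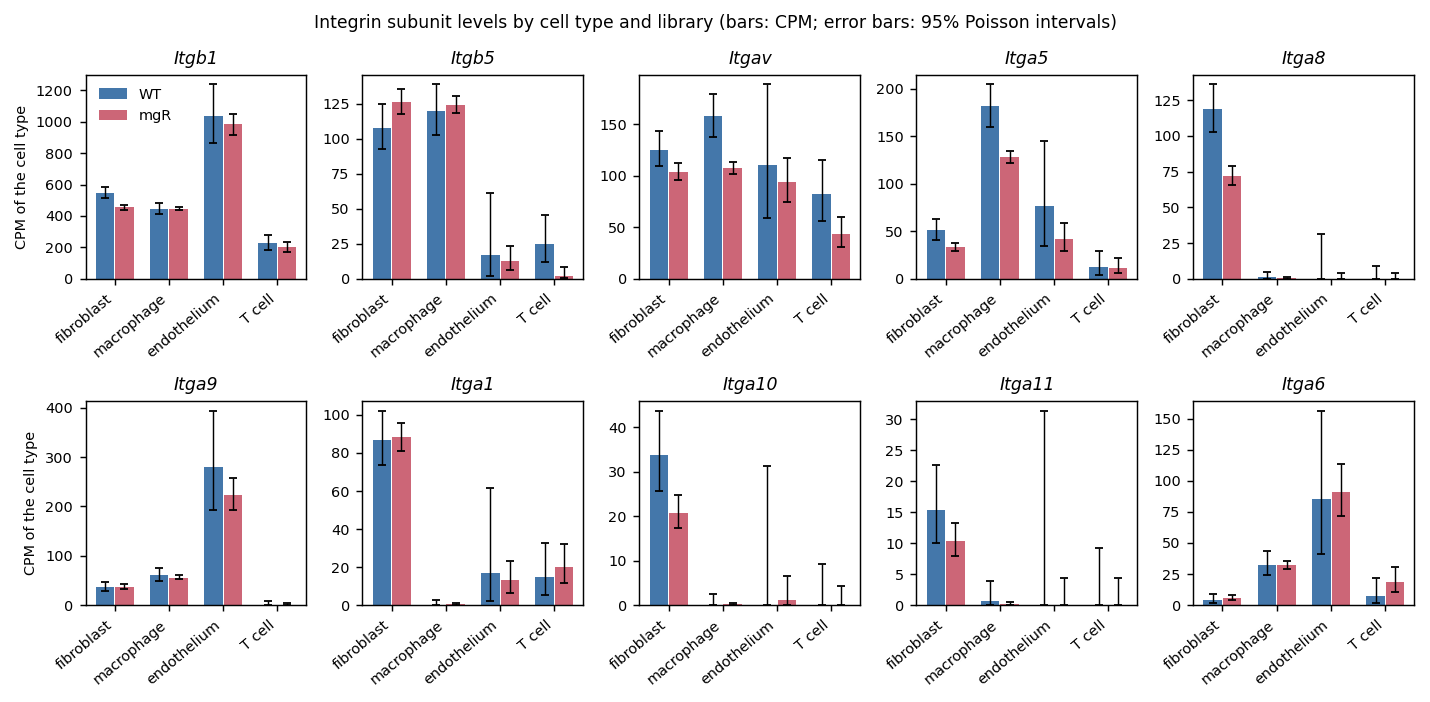
Level of each of the 10 genes in CPM (vertical axis, from 0) in 4 cell types, with WT in blue and mgR in red and 95% Poisson intervals as error bars. Itgb1 reached every type and was highest in endothelium at 1038 and 983 CPM, whereas the bars of Itga8, Itga10 and Itga11 stand clear of 0 in fibroblasts.

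The RGD-binding α subunits differed in how they were spread over the types. Itgav was present in all 4 types, with 157.8 and 107.5 CPM in WT and mgR macrophages, 125.5 and 104.2 CPM in fibroblasts, 110.6 and 94.2 CPM in endothelium, and 82.2 and 43.4 CPM in T cells. Itga5, the α chain of the main fibronectin receptor, was highest in macrophages, at 181.4 CPM (160 to 205) in WT and 127.8 CPM (122 to 134) in mgR. Its fibroblast levels were 50.9 and 33.2 CPM, and its endothelial levels of 76.5 and 42.4 CPM, from 9 and 36 UMIs, had intervals that overlapped those of fibroblasts. Itga8, the α chain that binds nephronectin and fibronectin, was a fibroblast gene. It had 118.4 CPM (103 to 136) in WT fibroblasts and 71.8 CPM (65.3 to 78.8) in mgR fibroblasts, against 2 and 6 UMIs in macrophages and none in endothelium or T cells. Fibroblasts held 94.8% of all Itga8 UMIs in WT and 95.1% in mgR.

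Itga9 and Itga6 were led by endothelium. Itga9, whose product is known for its part in lymphatic valves, had 280.7 CPM (193 to 394) in WT and 222.6 CPM (192 to 257) in mgR endothelium. Macrophages had 60.9 and 55.9 CPM and fibroblasts 37.3 and 37.6 CPM, an order beyond counting error in both libraries. T cells had 0 Itga9 UMIs in both, which allows up to 7.47 CPM in WT and 3.52 CPM in mgR. Itga6, the laminin-binding chain, had 85.0 and 90.7 CPM in endothelium, 32.5 and 32.0 CPM in macrophages, and 4.15 and 5.84 CPM in fibroblasts.

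The collagen-binding α subunits were found mainly in fibroblasts. Itga1 had 87.0 CPM (73.5 to 102) in WT and 88.2 CPM (80.9 to 95.9) in mgR fibroblasts. Endothelium and T cells had between 13.0 and 19.9 CPM, and macrophages 0 and 8 UMIs. Itga10 had 33.8 and 20.7 CPM and Itga11 15.4 and 10.4 CPM in fibroblasts. The other types together held 0 WT and 3 mgR UMIs of Itga10 and 1 and 2 UMIs of Itga11.

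Each type drew its α subunit UMIs from a different group of genes. These shares are of UMIs tagged at the 3′ end, which are not scaled to transcript length, and they are not shares of protein. Of 798 α subunit UMIs in WT fibroblasts, Itgav gave 26.6%, Itga8 25.1% (22.1 to 28.2) and Itga1 18.4% (15.8 to 21.3). Among 2295 in mgR fibroblasts, Itgav gave 28.0%, Itga8 19.3% (17.7 to 20.98) and Itga1 23.7% (22.0 to 25.5), so Itga1 stood above Itga8 in mgR and below it in WT. In macrophages Itga5 led with 41.7% and 39.4%, followed by Itgav with 36.3% and 33.1%. In endothelium Itga9 led with 49.3% and 48.0%. In T cells Itgav gave 70.2% of 47 UMIs and 46.2% of 80 UMIs, intervals that overlapped.

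**Figure D2:**
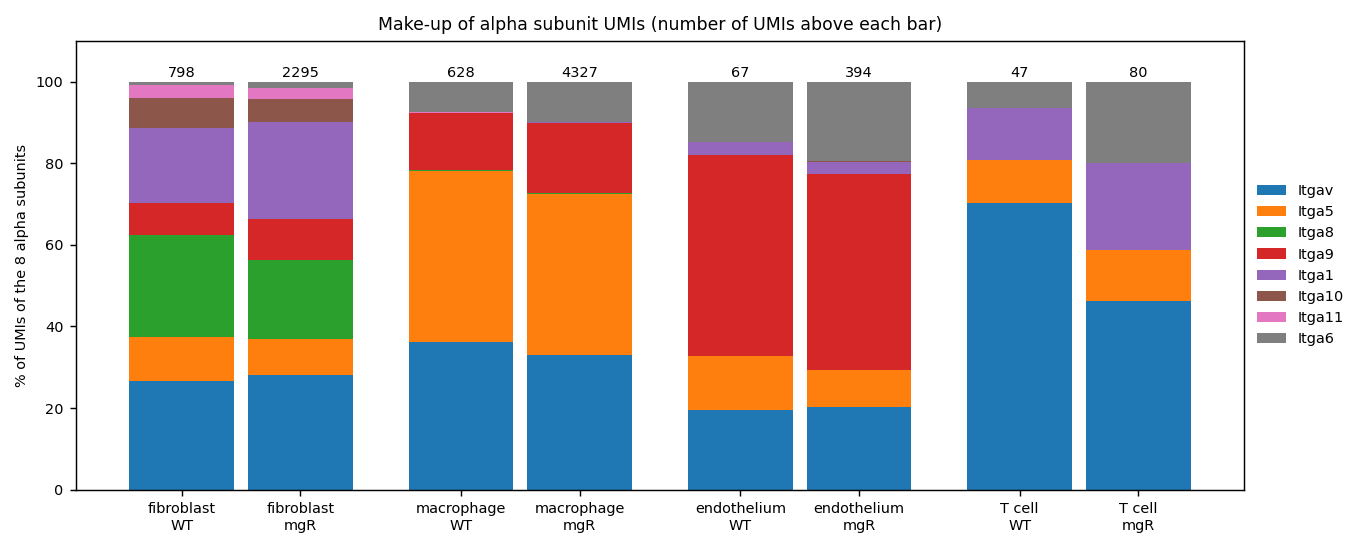
Share of the UMIs of the 8 α subunits (vertical axis, percent) that each gene gave in a cell type and library, with the number of UMIs above each bar. Macrophage bars are mostly Itga5 and Itgav, endothelium bars are 48.0% to 49.3% Itga9, and the Itga8 segment of fibroblasts is 25.1% in WT and 19.3% in mgR.

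The genotypes were compared within each cell type, to see whether integrin transcripts that could receive matrix signals differed in the diseased valve. A gene was called different if its CPM ratio of mgR to WT was past 1.5-fold and both libraries together held at least 50 of its UMIs. In fibroblasts 9 of the 10 members reached this minimum. Of these, 3 were called lower in mgR, Itga8, Itga5 and Itga10, and 0 higher. Among all 9445 genes tested there, 7.86% were called lower and 6.61% higher. The ratio interval lay below 1 for 5 members, the 3 called genes with Itgb1 and Itgav, against 13.3% of all genes, and above 1 for 0 members, against 9.93%. The median log2 ratio was -0.27 over the 9 members and -0.040 over all genes.

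Itga8 was the member with the lowest ratio in fibroblasts. Its 200 WT and 443 mgR UMIs gave a ratio of 0.606 (0.512 to 0.720). Within the Xist group it was 0.585 (0.436 to 0.796), and within the Y-linked group 0.561 (0.425 to 0.739). Fibroblasts with UMIs of neither kind, 96 in WT and 136 in mgR, did not show the lower level. Their Itga8 was 82.4 CPM (57.1 to 115) in WT and 83.4 CPM (63.4 to 108) in mgR, from 34 and 58 UMIs. With each cell thinned to 2000 UMIs, 21.9% of WT fibroblasts (17.3 to 27.1) and 14.0% of mgR fibroblasts (11.7 to 16.5) had an Itga8 UMI. Before thinning the shares were 40.7% and 34.3%. The thinned share in macrophages, which should lack the gene, was 0.459% and 0.0664%.

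Itga10 had 57 WT and 128 mgR UMIs and a ratio of 0.615 (0.447 to 0.855). Its ratio was similar within the Xist and Y-linked groups, 0.585 and 0.555, but both intervals reached past 1. Itga5 had 86 and 205 UMIs and a ratio of 0.653 (0.505 to 0.849). This ratio was 0.523 (0.345 to 0.791) for the Y-linked group and 0.925 (0.556 to 1.64) for the Xist group, and whether the groups differ was not tested. Both genes fell within 1.5-fold once the 10 cells with most of their UMIs were left out of each library, a step that removes a larger part of the smaller WT library.

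Itgb1 was lower in mgR fibroblasts by less than 1.5-fold, with a ratio of 0.829 (0.770 to 0.894). It was 0.944 (0.822 to 1.09) in the Xist group and 0.791 (0.701 to 0.893) in the Y-linked group, and 0.967 (0.905 to 1.03) when cells that also passed a second gate were added. Of the cells added, 29 in WT and 310 in mgR also passed the endothelium gate. Itgav had a ratio of 0.830 (0.710 to 0.974) over all fibroblasts. It was 0.926 and 0.920 in the Xist and Y-linked groups, with both intervals spanning 1. Fibroblasts with UMIs of neither kind had 123.7 CPM of Itgav (92.1 to 163) in WT and 60.4 CPM (43.5 to 81.7) in mgR. These levels came from 51 and 42 UMIs, and whether the groups differ was not tested. Itga1, at 1.01 (0.843 to 1.22), and Itga9, at 1.01 (0.760 to 1.35), did not differ detectably over all fibroblasts, but neither value was steady. The Itga1 ratio was 1.30 (0.916 to 1.89) in the Xist group and 0.687 (0.502 to 0.942) in the Y-linked group. That of Itga9 was 1.90 (0.976 to 4.25) in the Xist group, from 9 and 145 UMIs, and 0.944 (0.590 to 1.54) in the Y-linked group, and it was 1.49 (1.202 to 1.88) when cells that also passed a second gate were added. Itgb5 had a ratio of 1.17 (0.995 to 1.38), the highest of the 9 tested, with 1.37 (0.997 to 1.92) in the Xist group and 1.27 (0.977 to 1.67) in the Y-linked group. Itga11, with 26 and 64 UMIs, had 0.674 (0.421 to 1.11), and 0.520 (0.258 to 1.16) and 0.778 (0.321 to 1.96) in these groups. Itga6 held 7 and 36 UMIs in fibroblasts, under the minimum.

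**Figure D3:**
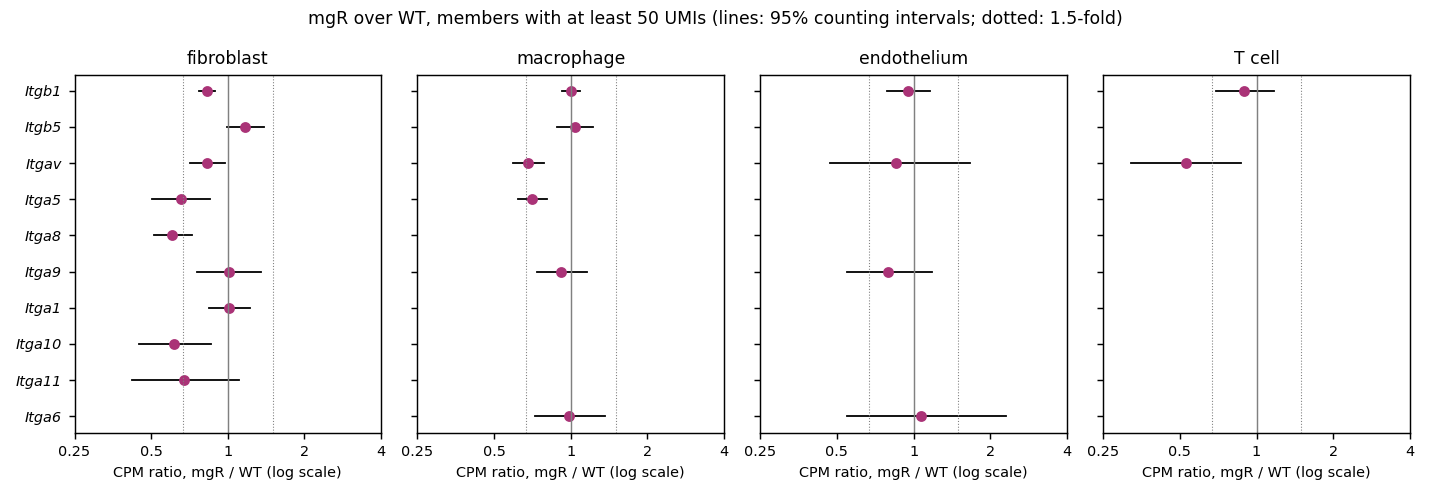
CPM ratio of mgR to WT (horizontal log axis) for each member with at least 50 UMIs in a cell type, with 95% counting intervals as lines and 1.5-fold as dotted lines. In fibroblasts Itga8, Itga5 and Itga10 lie left of the lower dotted line at 0.606, 0.653 and 0.615, and in macrophages Itgav and Itga5 lie just inside it.

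In macrophages 6 members could be compared and 0 were called in either direction, where 6.35% of 9344 genes were called lower and 15.5% higher. Itgav had 228 WT and 1433 mgR UMIs and a ratio of 0.681 (0.592 to 0.786). Itga5 had 262 and 1704 UMIs and a ratio of 0.705 (0.618 to 0.805). These were the 2 members whose interval lay below 1, against 9.6% of all genes, and 0 members had one above 1, against 17.7%. Itgav was lower in both sex groups, with 0.581 (0.464 to 0.738) for Xist and 0.774 (0.616 to 0.979) for Y-linked. Itga5 was 0.748 (0.594 to 0.953) and 0.821 (0.663 to 1.02). Itgb1 (1.004, 0.926 to 1.09), Itgb5 (1.04, 0.887 to 1.22), Itga6 (0.984, 0.727 to 1.36) and Itga9 (0.917, 0.734 to 1.16) did not differ detectably over all macrophages. In the Xist and Y-linked groups Itgb1 had 1.01 and 1.04, Itgb5 1.29 and 0.867, Itga6 0.771 and 1.04, and Itga9 0.710 and 1.01, each with an interval that spanned 1. Haemoglobin RNA differed between the libraries in these cells, with 162 CPM in WT and 936 CPM in mgR macrophages. A high haemoglobin count was found in 0 WT and 4 mgR macrophages. The summed neutrophil markers also differed, with 14.5 and 96.5 CPM, and the part of haemoglobin RNA or of these markers in the ratios was not tested. The typical macrophage gene was itself shifted, with a median log2 ratio of 0.13 over all genes, and scaling to the median gene instead put both Itgav and Itga5 past 1.5-fold and Itgb1 at 0.919 (0.847 to 0.998).

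In endothelium, where the WT library had 29 cells, 0 of 4 members were called, against 11.1% of 3312 genes lower and 17.4% higher. Itgb1 had a ratio of 0.948 (0.783 to 1.16), Itga9 0.793 (0.546 to 1.19), Itgav 0.852 (0.471 to 1.67) and Itga6 1.07 (0.550 to 2.31), and the fibroblast ratios of Itgb1, Itga9 and Itgav lay within these intervals. With 9 and 7 WT cells, the Xist and Y-linked groups gave 0.805 (0.607 to 1.09) and 0.852 (0.601 to 1.23) for Itgb1 and 0.565 (0.343 to 0.985) and 0.903 (0.432 to 2.11) for Itga9. Those of Itgav, 1.11 and 0.595, and of Itga6, 1.63 and 0.396, rested on 3 to 6 WT UMIs and their intervals spanned 1. In T cells 2 members could be compared. Itgb1 had a ratio of 0.895 (0.691 to 1.17), and 0.963 and 0.885 in the Xist and Y-linked groups. Itgav was called lower, with 33 and 37 UMIs and a ratio of 0.528 (0.321 to 0.871), where 11.1% of 3405 genes were called lower and 7.61% higher. Its ratio was 0.531 (0.260 to 1.12) in the Xist group and 0.472 (0.190 to 1.12) in the Y-linked group. Haemoglobin RNA differed between the libraries in these cells, with 10763 CPM of Hba-a1 and Hbb-bs in WT and 1895 CPM in mgR T cells. All haemoglobin genes together gave 1.36% of WT and 0.242% of mgR T cell UMIs, and 1 T cell in each library had a high haemoglobin count. The part of haemoglobin RNA in the Itgav ratio was not tested.

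The members varied among fibroblasts in ways that recurred in both libraries. Fibroblasts were split by tendon-type genes (Fmod, Prg4 and Scx, 94 WT and 309 mgR cells) and by interstitial genes (Ptx3, Igfbp3 and Smoc2, 98 and 242 cells). Itga8 was lower in the tendon-gene cells than in the interstitial-gene cells, with a ratio of 0.544 (0.367 to 0.797) in WT and 0.599 (0.469 to 0.764) in mgR. The collagen-binding Itga1 went the other way, at 1.65 (1.07 to 2.58) and 2.59 (1.99 to 3.39). Itga10 had 1.45 (0.654 to 3.33) in WT and 3.50 (2.01 to 6.44) in mgR, and Itga11 1.76 (0.638 to 5.27) and 2.15 (1.11 to 4.42). Itgb1 did not differ detectably between these subsets, at 0.888 (0.752 to 1.05) and 0.945 (0.861 to 1.04).

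The lower Itga8 level of mgR was found within subsets. Its mgR to WT ratio was 0.642 (0.450 to 0.931) in the tendon-gene cells, 0.583 (0.443 to 0.772) in the interstitial-gene cells, 0.490 (0.299 to 0.824) in cells with both gene groups and 0.767 (0.546 to 1.09) in cells with neither. Haemoglobin RNA (Hba-a1 and Hbb-bs) differed between the libraries in the last 2 subsets, with 10800 CPM in WT and 55.7 CPM in mgR cells of the former and 259 and 7826 CPM in the latter. Its part in these ratios was not tested. Over all fibroblasts, 1 WT and 2 mgR cells had a high haemoglobin count. Itga10 was uneven, with a ratio of 0.966 (0.563 to 1.75) in the tendon-gene cells, 0.401 (0.178 to 0.929) in the interstitial-gene cells and 0.441 (0.243 to 0.808) in cells with neither. The difference between these ratios was not tested. Itgb1 was 0.838 (0.732 to 0.962) and 0.787 (0.691 to 0.900) in the tendon-gene and interstitial-gene cells. Itga5 was also uneven, at 0.632 (0.383 to 1.08) in the tendon-gene cells, 0.997 (0.589 to 1.76) in the interstitial-gene cells, 0.508 (0.288 to 0.927) in cells with both and 0.532 (0.317 to 0.909) in cells with neither. Itga1 went both ways, with 0.635 (0.422 to 0.972) in the interstitial-gene cells and 1.58 (1.03 to 2.52) in cells with neither, and 0.995 and 0.837 in the other two. Itga9 reached 2.22 (1.13 to 4.84) in cells with neither, from 10 and 64 UMIs, and its intervals spanned 1 in the other subsets. Itgav had 0.662 (0.478 to 0.926) in cells with neither, and its intervals likewise spanned 1 elsewhere. In cells with neither, the summed endothelial markers also differed between the libraries, with 118 CPM in WT and 252 CPM in mgR. The summed neutrophil markers there were 4.63 and 82.5 CPM. The part of either in these ratios was not tested.

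The order of Itga1 and Itga8 over all fibroblasts joined these subsets. In UMIs, Itga1 stood above Itga8 in the tendon-gene cells of both libraries, with 58 against 43 in WT and 253 against 121 in mgR. It stood below Itga8 in the interstitial-gene cells of both, with 36 against 81 and 76 against 157. Cells with both gene groups had 27 against 25 and 96 against 52. The order switched between the libraries in cells with neither, with 26 against 51 in WT and 119 against 113 in mgR.

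Macrophages were split by resident-type genes (Lyve1, Folr2 and Cd163, 59 WT and 732 mgR cells) and by Cx3cr1 and Cd72 (88 and 350 cells). Itga6 separated them most among the members compared. It had 8.07 CPM in the Lyve1 subset and 48.9 CPM in the Cx3cr1 subset of WT, and 10.8 and 63.6 CPM in mgR, ratios of 0.165 (0.0322 to 0.530) and 0.169 (0.127 to 0.224). Itga5 was also lower in the Lyve1 subset, at 0.606 (0.429 to 0.844) in WT and 0.471 (0.420 to 0.528) in mgR. Itgb5 had 0.707 (0.465 to 1.06) and 0.630 (0.560 to 0.708), whereas Itga9 had 1.12 (0.683 to 1.83) and 1.38 (1.14 to 1.69). The subset makeup differed between the libraries, so the genotypes were also compared inside each subset. Itgav stayed lower in mgR in both, at 0.583 (0.448 to 0.769) in the Lyve1 subset and 0.721 (0.578 to 0.905) in the Cx3cr1 subset. Itga5 was 0.694 (0.520 to 0.946) in the Lyve1 subset and 0.894 (0.741 to 1.08) in the Cx3cr1 subset, and Itgb1 was 0.891 (0.767 to 1.04) and 1.18 (1.03 to 1.36). Itga9 was 0.777 (0.535 to 1.17) in the Lyve1 subset and 0.631 (0.447 to 0.907) in the Cx3cr1 subset, where it had 44 WT and 141 mgR UMIs. Itgb5 and Itga6 had ratios above 1 in both subsets, between 1.07 and 1.33, with intervals that spanned 1. Between the libraries, the summed neutrophil markers went from 24.2 to 160.9 CPM in the Lyve1 subset, and haemoglobin RNA from 134 to 2948 CPM in the Cx3cr1 subset and from 164 to 488 CPM in the Lyve1 subset. Their part in these ratios was not tested.

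**Figure D4:**
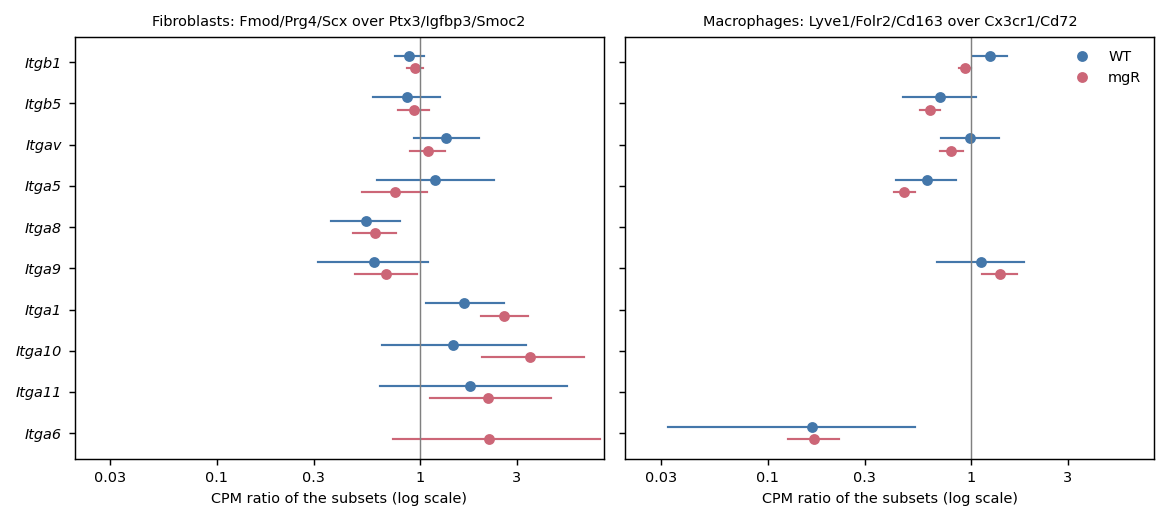
CPM ratio between subsets of fibroblasts (left) and of macrophages (right) on a horizontal log axis, with WT in blue, mgR in red and 95% counting intervals as lines, for genes with at least 15 UMIs in both subsets together. In both libraries Itga8 lies below 1 and Itga1 above 1 in fibroblasts, and Itga6 lies near 0.17 in macrophages.

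The endothelium gate was passed by 60 WT and 478 mgR cells, of which 29 and 310 also passed the fibroblast gate and so were left out of both types. The cells with exactly these 2 gates (28 and 301) had endothelial markers at 2249 and 2915 CPM, above the 1556 and 1737 CPM of the cells that passed the endothelium gate alone. Their fibroblast markers summed to 4864 and 5992 CPM, far under the fibroblast level. Their Itga9, at 186 and 187 CPM, and Itga6, at 105.3 and 96.4 CPM, were nearer to the endothelial than to the fibroblast levels. Itgb1, at 787 and 852 CPM, Itga1, at 68.2 and 38.9 CPM, and Itgb5, at 37.2 and 25.1 CPM, lay between the levels of these types. Itga8 had 8 UMIs in the 28 WT cells and 7 in the 301 mgR cells, or 49.6 and 3.44 CPM. Itgav had 21 and 145 UMIs in these cells, a ratio of mgR to WT of 0.548 (0.346 to 0.913). Over every cell that passed the endothelium gate the Itgav ratio was 0.686 (0.480 to 1.007). In the cells with exactly the 2 gates the ratio was 1.08 (0.903 to 1.31) for Itgb1, 1.01 (0.695 to 1.52) for Itga9 and 0.915 (0.557 to 1.60) for Itga6. Within mgR endothelium, 43 cells with Wnt9b, Nts or Dkk2 had more Itgb1 than 42 cells with Prox1, Vwf or Emcn, at 1.252 (1.03 to 1.53), and less Itga6, at 0.474 (0.245 to 0.899). With 7 WT cells in each, the same comparison in WT gave wide intervals, 1.26 (0.660 to 2.41) for Itgb1 and 0.401 (0.0698 to 1.61) for Itga9, and Itga6 had 1 UMI in all.

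In single fibroblasts the subunits were counted together about as often as their separate shares gave. At 2000 UMIs per cell, Itgb1 and Itga8 were both found in 37 of 292 WT cells, where the product of the shares gives 40.3, and in 76 of 844 mgR cells, where it gives 69.8. Itgb1 and Itga1 were both found in 27 and 81 cells, against 25.2 and 72.1. The collagen-binding Itga1 and Itga10 shared 0 WT cells, against 3.15, and 9 mgR cells, against 7.08. At this depth 37.7% of WT and 48.2% of mgR fibroblasts had no UMI of any of the 8 α subunits, which does not show that these cells lack α chains.

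The rest of the integrin pathway was described by 3 lists, with the same rule for calls. Of 33 ligands and matrix partners, 30 could be compared in fibroblasts, 5 were called lower and 2 higher, against 7.86% and 6.61% of all genes. The ratio interval lay below 1 for 15 of the 30 and above 1 for 3, against 13.3% and 9.93% of all genes. The lowest were Spp1 (osteopontin) at 0.527 (0.399 to 0.700), Nid1 (nidogen, a basement membrane linker) at 0.609 (0.530 to 0.700) and Thbs1 (thrombospondin) at 0.653 (0.613 to 0.695). The 2 called higher were Tnc (tenascin, a ligand of α9β1) at 2.39 (1.09 to 6.18), from 7 and 61 UMIs, and Fn1 (fibronectin) at 2.03 (1.58 to 2.65). The median log2 ratio of the ligands was -0.25. Of 30 genes of the adhesion complex, 26 could be compared in fibroblasts, 1 was called lower and 0 higher, with a median of -0.10, and the interval lay below 1 for 5 and above 1 for 2. The scaffold Bcar1 was the gene called, at 0.643 (0.440 to 0.956), and the talin gene Tln1 had 1.24 (1.08 to 1.42) without passing 1.5-fold. Among 10 further integrin subunits, Itgb8 was the one with enough UMIs in fibroblasts, at 30.2 and 35.0 CPM and a ratio of 1.16 (0.851 to 1.61).

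In macrophages 2 of 10 ligands were called higher and 1 lower, where 15.5% of all genes were called higher and 6.35% lower. Fn1 had 13 WT and 1124 mgR UMIs, a ratio of 9.37 (5.45 to 17.6), but 63.6% of the mgR UMIs came from 10 cells, and 4.96% of mgR macrophages had any. Spp1 had a ratio of 1.59 (1.22 to 2.12), in the direction opposite to its fibroblast ratio, and Col4a2, with 10 and 55 UMIs, had 0.596 (0.301 to 1.31). Of 24 adhesion complex genes 4 were called higher and 2 lower, with the share higher close to that of all genes. The interval left out 1 for 3 of those called higher and for the 2 called lower. The actin linker Tns1 had 1.87 (1.56 to 2.27) and the docking protein gene Nedd9 1.75 (1.18 to 2.71), whereas the kinase genes Src and Ptk2b had 0.363 (0.2497 to 0.539) and 0.643 (0.5004 to 0.835). The leukocyte subunit Itga4 had 92.8 and 108.1 CPM, a ratio of 1.16 (0.975 to 1.40).

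In endothelium 5 of 14 ligands were called higher and 2 lower, and 2 of 18 adhesion complex genes were called higher and 1 lower, where 17.4% of all genes were called higher and 11.1% lower. Among these calls, the interval left out 1 for 2 higher and 1 lower ligands and for 1 higher and 0 lower adhesion complex genes. Over all 3312 genes it did so for 198 called higher and 151 called lower. Ccn2, a matricellular ligand, had 0 WT and 57 mgR UMIs, and Postn (periostin) had a ratio of 0.582 (0.442 to 0.777). Fn1, called higher in fibroblasts and macrophages, had 638 CPM in WT and 427 CPM in mgR endothelium, from 75 and 363 UMIs. Its ratio there was 0.670 (0.521 to 0.871), in the opposite direction and within 1.5-fold. Itgb4, the other β partner of α6, had 127.6 and 115.4 CPM there, from 15 and 98 UMIs. In T cells 3 further subunits could be compared, and Itgb3, a β partner of αv that was singled out after its values were seen, had 77.2 CPM in WT and 30.5 CPM in mgR, a ratio of 0.395 (0.225 to 0.687). Itgav and Itgb3 were thus both lower in the mgR T cells, where Itga4, at 1.504 (1.03 to 2.25), was called higher.

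For the 8 members with at least 300 UMIs in the 4 types, the genes with the most similar levels were sought among 7535 genes over the 8 combinations of type and library. With so few points, and with both libraries of a type sharing its identity, these correlations are descriptions. Itgb1 was most like Mex3d, Ctbp2 and Ctnna1, with r of 0.990 for the first. Itga8 was most like Foxs1, Myoc and Cntfr, all with r of about 0.999. Itga9 was most like Ctnna1, Pdlim5 and Dapk1, Itga6 like F11r, Tppp and Klhl18, Itga5 like Fnip2, Fnip1 and Zfand5, and Itga1 like Nr4a2, Dkk3 and Josd2. Itgav was most like Samd4b, Canx and Fbxo30, at 0.972 for the first, and Itgb5 like Optn, Mt2 and Plekhm2, at 0.980 for the first.

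All 10 genes are protein coding and are placed here on GRCm38. Itgb1 lies on chromosome 8 from 128685654 to 128733200 and Itgb5 on chromosome 16 from 33829665 to 33949338, both on the plus strand and clear of other annotated genes. Itga8 lies on chromosome 2 from 12106632 to 12301922 on the minus strand, Itgav on chromosome 2 from 83724397 to 83806916 on the plus strand, and Itga6 on chromosome 2 from 71745616 to 71858416 on the plus strand. Itga5 lies on chromosome 15 from 103344286 to 103366763 on the minus strand. Itga9 and Itga11 lie on the plus strand of chromosome 9, from 118606690 to 118901003 and from 62677826 to 62783982. Itga1 lies on chromosome 13 from 114953096 to 115101964 on the minus strand and overlaps Pelo and Gm49395, protein coding genes of the same strand. Itga10 lies on chromosome 3 from 96645584 to 96664519 on the plus strand and overlaps Gm42957 in the same way, so counts of Itga1 and Itga10 are less certain. On their own strands, Itga8 also overlaps the unclassified transcript Gm37701, Itga6 the processed transcripts Gm13663 and Gm13662, and Itga5 the miRNA gene Mir6963.

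Choices of processing moved the fibroblast ratios by unequal amounts. Itga8 kept a ratio under 1 with an interval that left out 1 in each of the 10 alternatives that give an interval. The interval of Itgb1 did so in 7 of 10, that of Itga5 in 7 of 10, and those of Itga10 and Itgav in 6 of 10. All 5 genes stayed below 1 in all 11 alternatives. They are the members whose reported interval lay below 1, and every alternative uses the same 2 libraries. Of the other members tested in fibroblasts, Itga1 changed side of 1 in 6 of 11 alternatives, Itga9 in 2, and Itgb5 and Itga11 in 1 each.

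**Figure D5:**
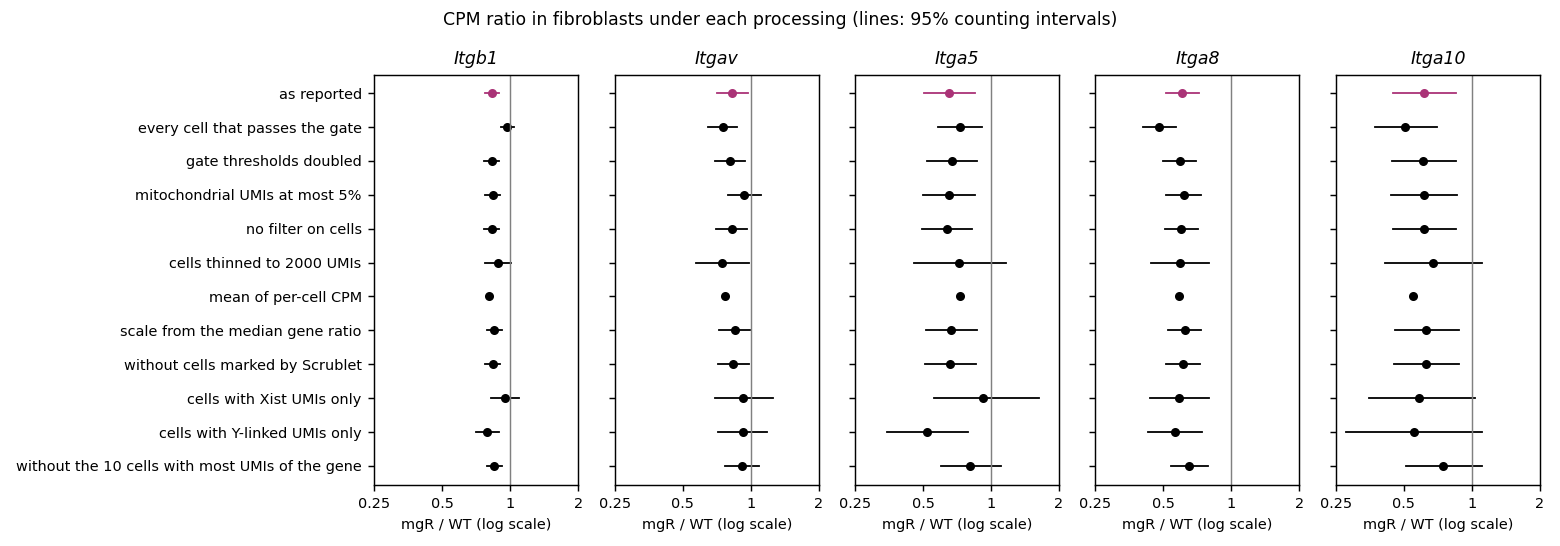
CPM ratio of mgR to WT in fibroblasts (horizontal log axis) for the 5 members whose reported interval lay below 1. Ratios are shown as reported (top, coloured) and under 11 other ways of processing, with 95% counting intervals as lines. Every point lies below 1, and the intervals of Itga8 stay clear of 1 in each row that has one.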

How the data were processed

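Single-cell RNA-seq was read from the deposited UMI count matrices, which the authors made with Cell Ranger 7.1.0 on mm10 from 10x 3′ libraries. Annotation version and intron handling are not given in the sources used here. The matrices held 1104 WT and 3802 mgR barcodes with 5381844 and 28215539 UMIs. Cells with 200 to 5000 genes and at most 10% mitochondrial UMIs were kept (875 and 3438 cells). 2 barcodes occurred in both libraries, and 0 among kept cells. Gates were Col1a2, Col3a1 and Dcn (at least 10 UMIs summed, fibroblast), C1qa, C1qb and C1qc (10, macrophage), Pecam1 and Cdh5 (2, endothelium), and Cd3e, Cd3d and Cd3g (2, T cell). Cells that passed several gates (33 and 361) or none (177 and 374) were left out of the types. Further splits needed 3 summed UMIs (fibroblasts, Lyve1 group) or 2 (Cx3cr1 group, endothelium). Doublets were not removed beyond the gene limit. Scrublet, run in scanpy 1.11.5 as an alternative, marked 7 and 51 cells, of which 3 and 43 had passed several gates.

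UMIs were summed per type and library and divided by the type total (CPM). Sums carry exact Poisson, shares exact Clopper-Pearson and ratios exact conditional binomial intervals, computed with scipy 1.17.1 at 95%, and UMIs are molecules, so the intervals cover counting error only. A count of 0 was taken to allow 3 counts. No test was made here. Likeness was the Pearson correlation of log2(CPM + 10). The computation was tested on simulated data. Both simulated libraries were drawn as independent Poisson counts from a pooled profile, with no variation among cells, animals or libraries. The rates therefore cover counting error only and are not error rates of the genotype comparison. In a simulated fibroblast comparison of 9426 genes, 2-fold changes were recovered for 98% of raised and 100% of lowered genes. Of the unchanged genes, 5.11% passed 1.5-fold. Gene positions were matched by identifier for 32158 of 32285 rows. Protein sequences were not used here, and the planned comparison of protein features was not made. Named genes were all 10 members and the 3 most similar genes of each member with enough UMIs. Pathway genes of fibroblasts, macrophages and endothelium were taken from the 3 highest and 3 lowest ratios of each list there. Not all of these are printed, so those named are a further selection. Members and lists were chosen with earlier results of these data known.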

Additional observations from a re-analysis of the deposited data

Results flagged for a closer look

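Barcodes left out by the filters, 229 in WT and 364 in mgR, were not part of any comparison. There, 5 members had a higher CPM in the mgR library than in the WT library by more than counting error. The share of all genes with such a ratio was not computed, so this count is not a result about the members. The ratio of mgR to WT was 4.11 (2.79 to 6.28) for Itgb1, from 29 and 228 UMIs, and 2.47 (1.07 to 6.61) for Itgb5, from 7 and 33 UMIs. It was 2.18 (1.14 to 4.50) for Itgav, from 12 and 50 UMIs, and 4.71 (1.45 to 24.3) for Itga9, from 3 and 27 UMIs. Itga6 had 0 WT and 23 mgR UMIs, 4.01-fold higher in mgR against a floor of 3 counts and at least 3.01-fold higher by the exact counting interval. CPM here is per UMI of these barcodes with haemoglobin included, so a lower haemoglobin share raises the CPM of other genes. Haemoglobin genes held 91.4% of the UMIs of the left-out WT barcodes and 75.6% of those of the mgR barcodes. The filters left out 0 WT and 9 mgR barcodes with more than 5000 genes. The part of either in these ratios was not tested. With no filter on cells, the fibroblast Itgb1 ratio stayed on the same side of 1.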

How the results depend on the processing

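Of 230 recomputed values of 21 single-gene ratios, 207 moved by less than the counting interval of the reported value and 23 by more, and 0 ratios whose reported interval left out 1 crossed 1. Leaving out 10 cells gave no value for Itga6 in endothelium, where no WT UMI was left. For the counts of called members below, the share over all genes was not computed under the same alternative. They show how the calls moved and are not results about the members. With every cell that passes the gate, the log2 ratio of Itgb1 in fibroblasts was -0.048 and 1 member was called higher there, Itga8 moved to -1.06 and Itga9 to 0.58. With doubled gate thresholds 1 member was called higher in fibroblasts and 2 lower in endothelium. With cells holding Xist UMIs only, the log2 ratio of Itgb1 in fibroblasts was -0.083, 1 member was called higher in fibroblasts, 1 lower in macrophages, 1 higher and 1 lower in endothelium and 0 lower in T cells. The cell numbers in these groups are smaller, and 0 T cell members were called lower with Y-linked UMIs only, where Itgav no longer held 50 UMIs. Thinned to 2000 UMIs, 1 member was called lower in fibroblasts and 0 in T cells. The mean of per-cell CPM gave 1 endothelial member called higher. Scaling to the median gene shifted log2 ratios by -0.13 in macrophages, where Itgb1 became -0.12 and 2 members were called lower. Without the 10 cells with most UMIs of a gene, 1 member was called lower in fibroblasts, 2 higher in endothelium and 0 lower in T cells, and the log2 ratio of Itgb1 was 0.26 in endothelium and 0.41 in T cells. This step removes 10 of 29 WT endothelial cells. A fold threshold of 2 left 0 members called lower in fibroblasts and 0 in T cells, a threshold below 1.5 called 2 lower in macrophages and 1 lower in endothelium, a minimum of 20 UMIs called 1 lower in endothelium, and a minimum of 100 UMIs left 0 lower in T cells. The log2 ratio of Itgav in T cells nonetheless lay between -1.08 and -0.72 in all 11 alternatives, past 1.5-fold in each, so its lost calls came with fewer than 50 UMIs or a stricter rule for calls. The causes of the other moves were not tested.

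No paired analysis was possible because there was 1 library per genotype. No replicate was left out and no test of the genotypes was made for the same reason. Differences in genotype, sex makeup, animals, depth and library preparation cannot be told apart. In simulated data of the depth of endothelium, which held counting error alone, 88% of raised and 90.2% of lowered 2-fold changes were recovered. Of the unchanged genes, 18.5% passed 1.5-fold. At the depth of macrophages these shares were 92%, 88.4% and 9.16%.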

Other observations

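Cells outside the 4 gates added values in further cell groups. Cells with dendritic cell genes (Cd209a, Flt3 or Ccr7, 40 in WT and 143 in mgR) had 308 and 298 CPM of Itgb1, a ratio of mgR to WT of 0.966 (0.778 to 1.21), and 32.9 and 47.2 CPM of Itga5. Cells with pigment genes (Dct, Pmel or Mlana, 23 and 8) had 527 and 468 CPM of Itgb1 and 139 and 108 CPM of Itga9, from 9 and 3 UMIs. Cells with neutrophil genes (17 and 38) held 6 and 2 UMIs of Itgb1 and 0 of Itgb5, Itga8, Itga9, Itga1, Itga10, Itga11 and Itga6.

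Over all kept cells together, with no split by type, the ratio of Itga8 was 0.379 (0.321 to 0.448), further from 1 than within fibroblasts, that of Itgb1 was 0.995 (0.951 to 1.04), and that of Itga6 was 1.498 (1.21 to 1.88). Fibroblasts were 36.8% of WT and 25.5% of mgR cells, so these pooled values join the level within a type with the makeup of the library.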
